A study of Mus musculus with 17 samples.

Results

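The genes described here are 40 genes of the endothelium, the cell layer that lines blood and lymph vessels, chosen by name from the 21931 genes of the deposited table. All 40 were in the table. The comparison asked whether they followed hemoglobin, measured by Hba-a1 with the beta chains Hbb-bs and Hbb-bt, from tumor to tumor, and whether they differed between the groups. The samples were distant MC38 tumors, bulk pieces of a mouse colon cancer line grown under the skin of wild-type C57BL/6J mice aged 6 to 8 weeks, with cells injected on both sides. The Control group held 9 tumors and the Cryoablation group 8. In mice of the Cryoablation group, one tumor was frozen with a cryoprobe in 2 freezing cycles on day 7 after implantation, when tumors were 5 to 6 mm across, and its untreated partner on the opposite side was taken 5 days later. The labels describe no sham procedure for the Control group and give no sex. A bulk sample holds tumor cells, vessels, immune cells and stroma together, so fewer endothelial cells and less RNA per endothelial cell cannot be told apart.

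Endothelial cells hold vessels together through junction proteins, sense growth factors through receptors of the VEGF and angiopoietin families, and take their identity from transcription factors of the ETS and SOX families. In growing tumors, sprouting vessels are known for genes such as Esm1, Apln and Dll4. Hemoglobin, in contrast, is made by red cells and their precursors, which vessels carry.

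The depth was similar in all tumors, with total counts from 13524899 to 17898672. Of the 40 vessel genes, 38 passed the filter on low counts among 13005 genes tested. The exceptions were Prox1, a lymphatic transcription factor with 0 to 5 counts a tumor, and Sele, E-selectin of activated endothelium, with 0 to 29 counts. Cryoablation replicates 2, 4 and 5 stood apart from the rest. They lay between -39.4 and -28.4 on a first principal component that held 46.2% of the variance, where the other 14 tumors lay between -8.32 and 20.6. They also had the 3 highest hemoglobin levels, so the results that rest on them are also given without them. Tumors also differed in a trend of expression with gene length. The correlation of a tumor's deviation from the mean with log2 gene length ranged from -0.483 to 0.486.

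The results showed that the vessel genes were detected at very different levels. Per kilobase of listed gene length, Cd34 was far above the rest, with a mean of 124.2 ± 11.9 CPM (counts scaled to the normalized library total) per kb (SD, n = 17 tumors). Plvap, a protein of endothelial fenestrae, followed with 28.6 ± 8.37 CPM per kb, then Vcam1, a receptor for leukocytes, with 25.5 ± 5.88 and Ecscr, an endothelial surface protein, with 20.3 ± 7.29. The ranges of Plvap, Vcam1 and Ecscr overlapped each other, whereas the lowest Cd34 tumor was above the highest Plvap tumor. At the low end were Selp, P-selectin, with 0.199 ± 0.182 CPM per kb, Flt4, the VEGF receptor of lymphatic vessels, with 0.284 ± 0.0773, and Clec14a, an endothelial lectin, with 0.336 ± 0.241. These low genes also overlapped each other. Defining endothelial markers were present in every tumor. Pecam1 ranged from 33.6 to 97.2 CPM in the Control group and from 35.5 to 55.7 CPM in the Cryoablation group. Cdh5, the cadherin of endothelial junctions, ranged from 17.2 to 41.3 CPM and from 13.4 to 32.3 CPM.

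**Figure D1:**
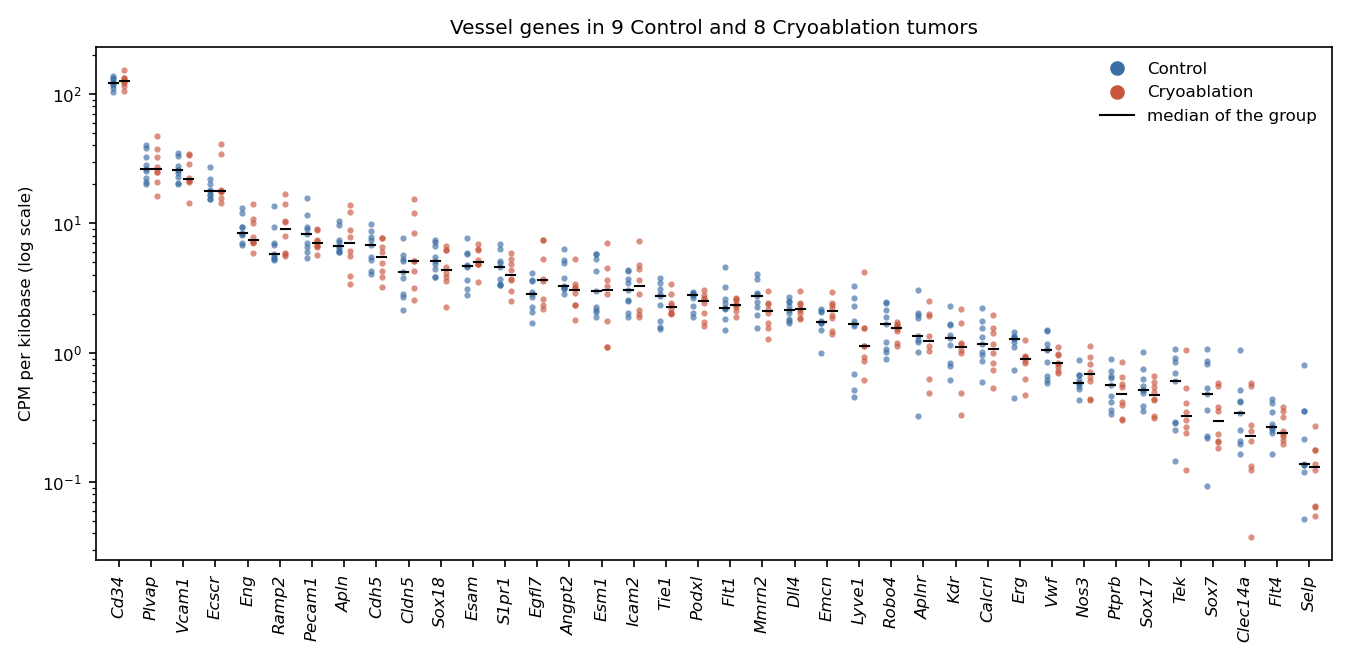
Levels of the 38 tested vessel genes in CPM per kilobase of listed gene length on a log scale, with 1 point per tumor and a black bar at each group's median. Cd34 sat above every other gene at a mean of 124.2 CPM per kb and Selp lowest at 0.199, and the points of the 2 groups overlapped for each gene.

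Most of these genes varied together from tumor to tumor. The correlation of a gene's log2 CPM with the mean of the other tested vessel genes over the 17 tumors had a median of 0.589, and 24 of 38 genes had a value of at least 0.5. Among the other genes tested, 10.2% had such a correlation with the vessel mean. The genes most like the rest were Tek, the angiopoietin receptor, with r = 0.830, Pecam1 with 0.826, Selp with 0.804, Tie1, a receptor paired with Tek, with 0.787, and S1pr1, a lipid receptor that steadies junctions, with 0.784. Over all 703 pairs of vessel genes, 505 (71.8%) had a positive correlation and the median was 0.293. Within the Control group the median correlation with the other members was 0.791, within the Cryoablation group it was 0.323, and without Cryoablation replicates 2, 4 and 5 it was 0.703. These correlations are descriptions of genes measured in the same libraries, and no test was made on them.

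The highest values were held mostly by a few tumors. Control replicate 4 was the highest tumor for 14 of the 38 genes and Control replicate 3 for 7. Cryoablation replicate 5 was also the highest for 7 genes and the lowest for 9. The mean log2 CPM of the vessel genes was 3.93 and 3.81 in these Control tumors. It ran from 3.01 over a median of 3.42 to 3.93 in the Control group and from 3.13 over 3.28 to 3.71 in the Cryoablation group. Selp, which showed the pattern at low counts, had 0.230, 0.603 and 3.56 CPM as lowest, median and highest Control tumor, and 0.239, 0.573 and 1.20 CPM in the Cryoablation group. Its highest value was again in Control replicate 4, and the groups overlapped.

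Cd34, Ramp2, Ecscr and Cldn5 were the only tested vessel genes with a negative correlation with the others. Cd34, a surface sialomucin of endothelial and stem cells, had r = -0.540. Its lowest, median and highest values were 752, 889 and 994 CPM in the Control group and 774, 917 and 1109 CPM in the Cryoablation group, a range of only 1.47 times between the extreme tumors, and its lowest tumor was Control replicate 4, where the pattern was highest. Ramp2, the partner of the adrenomedullin receptor Calcrl, had r = -0.476, while Calcrl itself had 0.611. Ecscr had r = -0.297 and Cldn5, a tight junction protein, had -0.133. Cd34 thus differed from the other endothelial genes both in level and in pattern, and which cells its counts came from was not tested.

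**Figure D2:**
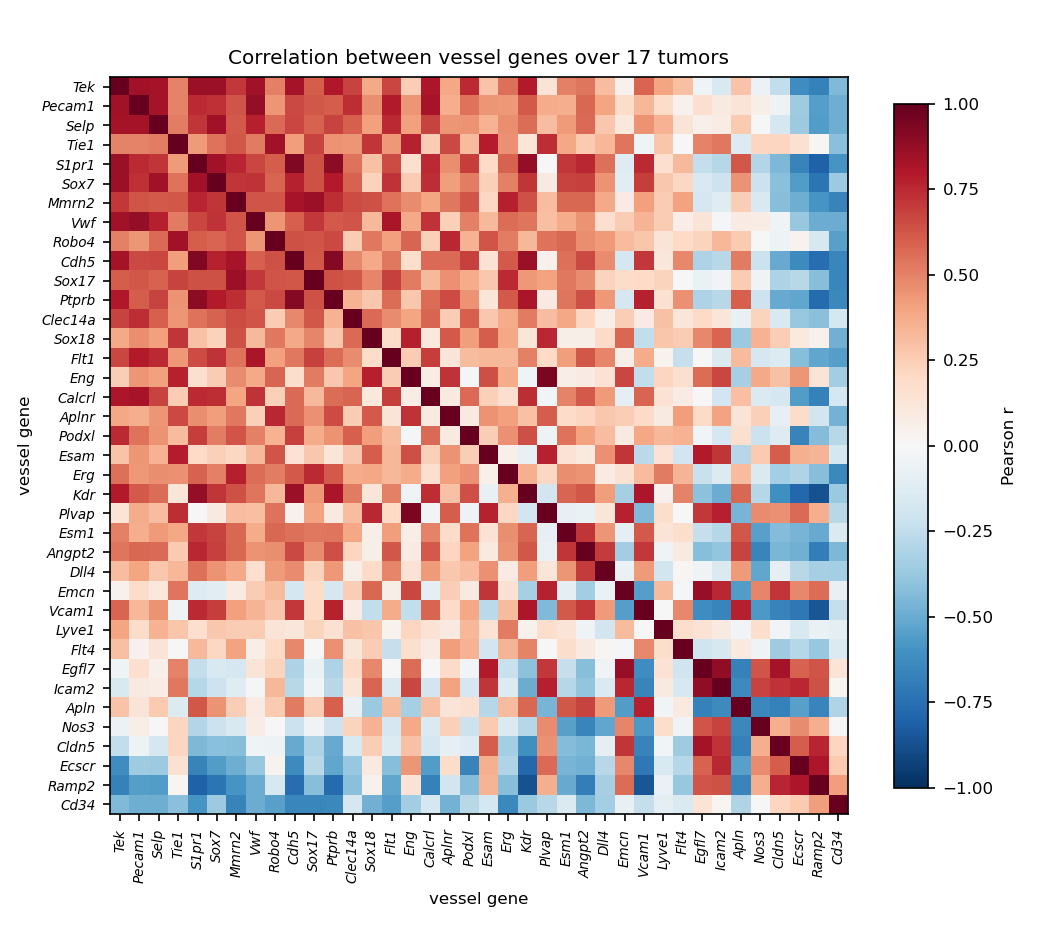
Pearson correlation between each pair of the 38 tested vessel genes over 17 tumors, ordered by the correlation with the mean of the others. The block of red from Tek (0.830) downwards shows the shared pattern, and Ecscr, Ramp2 and Cd34 (-0.297, -0.476 and -0.540) close the list in blue against it.

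RefSeq promoters, from 250 bases before to 50 bases after a gene's start in GRCm38.p6, were at hand for 20 of the 40 vessel genes. The ETS core GGAA was found on either strand in 19 of these 20, against 96.0% of 27025 promoters of the same length. The longer motif AGGAAG, which holds the core, was found in 11 of 20 against 35.1% of promoters. The SOX motif ACAATG was found in 1 of 20 (12.8% of promoters), the AP-1 motif TGANTCA in 2 (7.92%) and the GATA motif AGATAA in 1 (11.4%), each also searched on both strands. For genes with several listed starts the most upstream was used. The 4 promoters below belong to the 2 genes with the strongest shared pattern and the 2 with the smallest p on hemoglobin among those with a sequence. Capitals mark the ETS core or its reverse complement, 2 times in Tek, 8 times in Selp, 5 times in Egfl7 and 0 times in Cldn5.
Tek (chr4:94739039-94739338, plus strand): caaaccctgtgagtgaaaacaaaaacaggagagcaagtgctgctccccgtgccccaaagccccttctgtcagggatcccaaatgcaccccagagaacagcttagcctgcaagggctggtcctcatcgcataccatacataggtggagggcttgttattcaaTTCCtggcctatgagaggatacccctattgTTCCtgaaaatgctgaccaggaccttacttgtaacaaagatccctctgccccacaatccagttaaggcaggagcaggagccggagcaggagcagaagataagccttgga
Selp (chr1:164115014-164115313, plus strand): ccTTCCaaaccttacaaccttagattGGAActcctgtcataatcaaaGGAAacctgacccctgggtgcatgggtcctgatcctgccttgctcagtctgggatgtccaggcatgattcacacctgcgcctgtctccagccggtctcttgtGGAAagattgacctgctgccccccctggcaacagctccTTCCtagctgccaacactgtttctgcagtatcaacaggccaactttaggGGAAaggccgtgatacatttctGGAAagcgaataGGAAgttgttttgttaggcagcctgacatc
Egfl7 (chr2:26580833-26581132, plus strand): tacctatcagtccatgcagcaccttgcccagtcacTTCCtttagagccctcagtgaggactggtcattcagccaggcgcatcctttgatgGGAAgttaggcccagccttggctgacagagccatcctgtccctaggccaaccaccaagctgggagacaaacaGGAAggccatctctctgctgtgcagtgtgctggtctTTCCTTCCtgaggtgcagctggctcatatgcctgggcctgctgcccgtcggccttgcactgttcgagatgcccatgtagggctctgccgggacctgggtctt
Cldn5 (chr16:18776597-18776896, plus strand): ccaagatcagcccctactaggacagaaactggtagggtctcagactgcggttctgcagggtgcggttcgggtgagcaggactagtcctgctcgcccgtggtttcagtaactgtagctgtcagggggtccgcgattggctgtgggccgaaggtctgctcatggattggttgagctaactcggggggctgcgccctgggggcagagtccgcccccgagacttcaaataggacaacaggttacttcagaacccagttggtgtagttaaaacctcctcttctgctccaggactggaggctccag
A match is a description of these letters and not a bound site.

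No vessel gene passed the test between the groups. At an adjusted p under 0.05 (edgeR quasi-likelihood test, Benjamini-Hochberg over 13005 genes), 0 genes of the table (0%) were called, vessel genes included, as with DESeq2, and the smallest adjusted p of a vessel gene was 0.728. At an unadjusted p under 0.05, 1 of 38 vessel genes was called against 639 genes (4.91%) of the table. The study's own threshold, a log2 fold change beyond 1 in either direction with an unadjusted p under 0.05, held for 0.492% of all genes and for 0 vessel genes. The median log2 fold change (Cryoablation over Control) of the vessel genes was -0.14, beside -0.01 for all genes, and 12 of 38 were above 0. The ranges of the groups overlapped for all 38 vessel genes, and the share of genes without overlap was 0% over the whole table.

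The single gene past the unadjusted threshold was Egfl7, a protein that endothelial cells secrete into the matrix of growing vessels. It had 6.04, 10.1 and 14.7 CPM as the lowest, median and highest Control tumor and 7.71, 13.0 and 26.7 CPM in the Cryoablation group. The log2 fold change was 0.59 ± 0.26 (SE; edgeR, unadjusted p = 0.0367, adjusted p = 0.728). The tumors above the Control range were Cryoablation replicates 2, 4 and 5, and without them the log2 fold change was 0.00. Cldn5 had 3.05, 5.95 and 10.9 CPM in the Control group and 3.64, 7.20 and 22.0 CPM in the other group. The log2 fold change of Cldn5 was 0.67 ± 0.34 (adjusted p = 0.728, edgeR), and without the same 3 tumors it was -0.13. Neither gene passed the adjusted threshold.

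Downward, Mmrn2, a matrix protein that binds Clec14a, had 6.13, 11.0 and 16.0 CPM in the Control group and 5.08, 8.35 and 11.96 CPM in the Cryoablation group, and a log2 difference of -0.39 ± 0.20. Selp had -0.92 ± 0.47, the lowest value among the vessel genes, and from -1.17 to -0.49 when 1 tumor was left out. Neither passed, with an edgeR adjusted p of 0.728 for both. The 95% interval of the log2 fold change was -0.65 to 0.10 for Pecam1, -0.69 to 0.17 for Cdh5, -0.85 to 0.49 for Kdr, the main VEGF receptor, and -0.13 to 0.23 for Cd34. The interval of Cd34 was thus the narrowest of these 4, and that of Kdr the widest.

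Hemoglobin itself varied widely. The sum of Hba-a1, Hbb-bs and Hbb-bt had 5.14, 11.4 and 72.6 CPM as lowest, median and highest Control tumor and 23.9, 45.0 and 170.9 CPM in the Cryoablation group. The 3 highest tumors were Cryoablation replicates 5, 2 and 4, with 170.9, 137.7 and 88.6 CPM, and the groups overlapped. Reads of Hba-a1 can be shared with its near-identical copy Hba-a2, which had 0 to 32 counts a tumor. Other red cell genes were scarce, and of 8 in the table only Alas2, the heme synthesis enzyme of red cells, passed the filter.

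The mean level of the vessel genes had a correlation near 0 with hemoglobin. The correlation of their mean log2 CPM with log2 hemoglobin was -0.0767 over 17 tumors, 0.112 within the Control group, -0.0950 within the Cryoablation group and 0.0534 without Cryoablation replicates 2, 4 and 5. Gene by gene, Pearson's r ran from -0.692 for Vcam1 to 0.816 for Egfl7, with a median of -0.180, and 16 of 38 genes (42.1%) were above 0. Over all genes tested the median was -0.0787 and 46.8% were above 0. An r beyond 0.5 in either direction was found in 12 vessel genes (31.6%) and in 57.4% of all genes. The difference between these shares was not tested.

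The slope on hemoglobin, in log2 units per doubling of the hemoglobin CPM, passed an adjusted p under 0.05 (edgeR) in 10 of 38 vessel genes, beside 52.3% of all genes. Rising were 9 genes, beside 26.4% of all genes, and falling was 1 gene, beside 26% of all genes. When 1 tumor was left out, 6 to 9 rose and 1 to 9 fell. The shares among the vessel genes were not above those of the whole table, so these calls are no result about the vessel genes as a set. The rising genes were Egfl7, Ramp2, Ecscr, Cldn5, Icam2, Emcn, Esam, Nos3 and Plvap, and the falling gene was Vcam1. Of these 10, all but Ramp2 and Vcam1 belong to the 17 genes of junctions and the endothelial surface, 8 of which rose. Emcn is a mucin of the capillary and venous surface, Esam an adhesion molecule of tight junctions, and Nos3 the nitric oxide synthase of endothelium. Genes of macrophages, adipocytes and epidermis rose with hemoglobin as well, as given below.

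The steepest rises were those of Cldn5 and Egfl7. Egfl7 had a slope of 0.35 ± 0.06 (SE; edgeR adjusted p = 0.000207). Its 3 highest tumors were Cryoablation replicates 4, 5 and 2, with 26.7, 26.4 and 18.9 CPM. Cldn5 had the largest slope, 0.41 ± 0.08 (adjusted p = 0.000860), and the same tumors were highest, with 22.0, 17.03 and 11.96 CPM in replicates 2, 4 and 5. Cldn5 and Egfl7 therefore were highest in the 3 tumors with the most hemoglobin. Neither gene peaked in replicate 5, which had the most.

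Ramp2 had 17.1, 19.01 and 44.5 CPM in the Control group and 18.4, 30.0 and 55.1 CPM in the Cryoablation group, with a slope of 0.29 ± 0.06 (edgeR adjusted p = 0.000589). Ecscr had 26.8, 30.9 and 47.8 CPM and 25.2, 31.2 and 71.8 CPM, with a slope of 0.22 ± 0.05 (adjusted p = 0.000700). For both genes Cryoablation replicate 5 was highest, Control replicates 1 and 5 were the highest of their group, and the groups overlapped. Icam2, an adhesion molecule for leukocytes, had a slope of 0.29 ± 0.06 (adjusted p = 0.000954). Vcam1 went the other way, with 179, 228 and 308 CPM in the Control group and 126, 196 and 304 CPM in the Cryoablation group and a slope of -0.17 ± 0.04 (adjusted p = 0.00437). Its lowest tumor was Cryoablation replicate 5, the one with the most hemoglobin.

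Rank correlations and the groups taken alone gave the following picture. Egfl7 had r = 0.816 and Spearman's rho = 0.824 (permutation p = 7.0e-05 and 8.0e-05, adjusted over 13005 genes 0.000874 and 0.00397). Without the 2 tumors farthest from the median hemoglobin, Control replicate 6 and Cryoablation replicate 5, r was 0.706. It was 0.684 within the Control group and 0.925 within the Cryoablation group (exact permutation p = 0.0454 and 0.00181, n = 9 and 8). Icam2 had r = 0.757 and rho = 0.784 (permutation p = 0.000590 and 0.000290, adjusted 0.00253 and 0.00448), 0.642 without the 2 farthest tumors, and 0.812 and 0.961 within the groups (exact permutation p = 0.0107 and 0.000174). Vcam1 had r = -0.692 and rho = -0.728 (permutation p = 0.00203 and 0.00144, adjusted 0.00613 and 0.00757), -0.609 without the 2 farthest tumors, and -0.682 and -0.862 within the groups (exact permutation p = 0.0466 and 0.00456). For these 3 genes the direction was thus the same in both groups. That was common, as 30 of 38 vessel genes kept their sign within the Control group and 37 within the Cryoablation group. Within the Control group, r was 0.543 for Cldn5, 0.581 for Ramp2 and 0.835 for Ecscr (exact permutation p = 0.130, 0.0967 and 0.00402). Within the Cryoablation group it was 0.891, 0.887 and 0.852 (exact permutation p = 0.00446, 0.00561 and 0.00804). Over all vessel genes, 11 of 38 passed an adjusted permutation p of r under 0.05, 8 above and 3 below 0, beside 53.7% of all genes. Within the Control group 4 vessel genes had an exact permutation p under 0.05, beside 31.8% of all genes, and within the Cryoablation group 15, beside 56.2% of all genes.

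**Figure D3:**
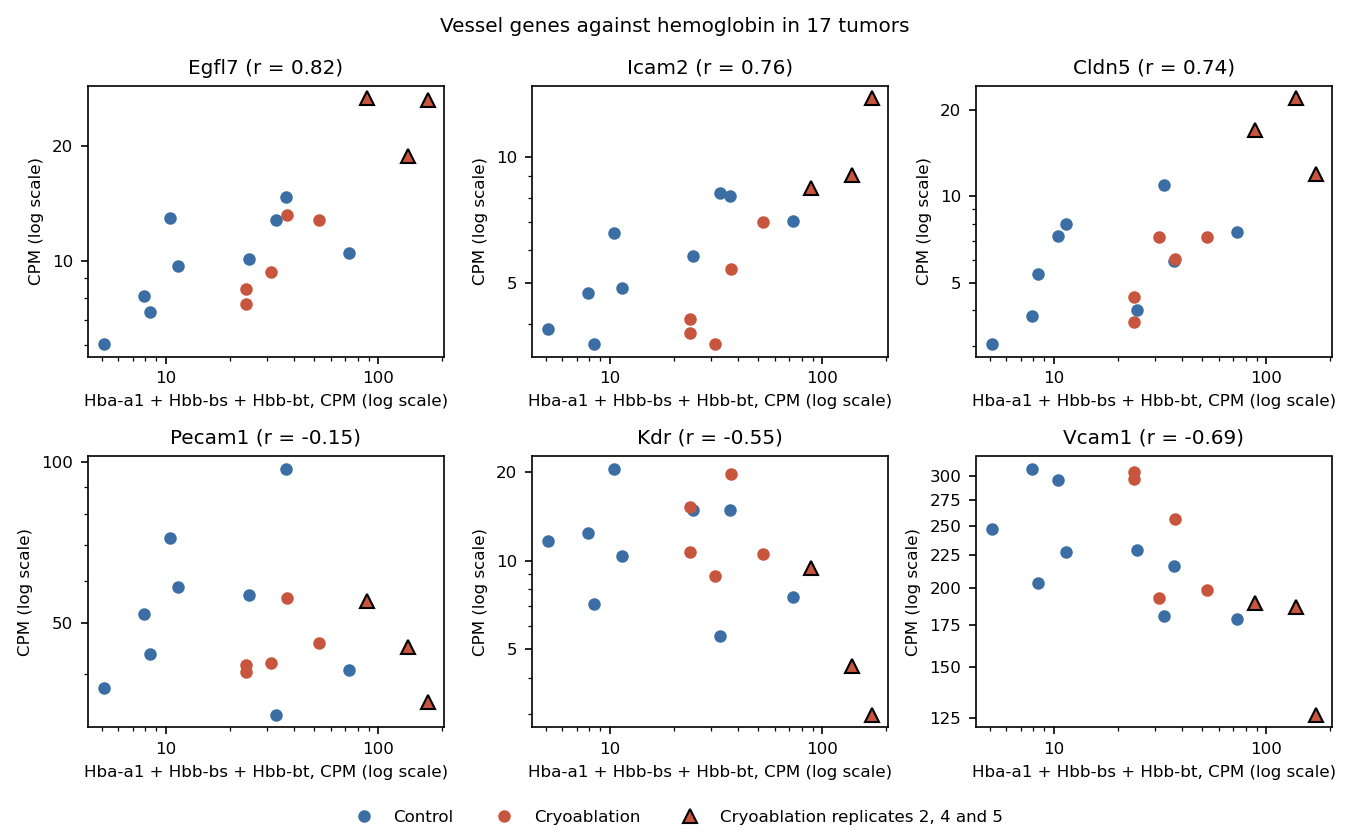
CPM of 6 vessel genes against the summed CPM of Hba-a1, Hbb-bs and Hbb-bt, both on log scales, with 1 point per tumor and triangles for Cryoablation replicates 2, 4 and 5. Egfl7, Icam2 and Cldn5 rose with hemoglobin (r = 0.82, 0.76 and 0.74), Pecam1 showed no clear trend (r = -0.15), and Kdr and Vcam1 were lowest in Cryoablation replicate 5 (r = -0.55 and -0.69).

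Much of this rested on Cryoablation replicates 2, 4 and 5. Without them, 0 vessel genes passed an adjusted p under 0.05, beside 0.0226% of 13250 genes. At an unadjusted p under 0.05, 4 vessel genes still rose, Egfl7, Ecscr, Ramp2 and Icam2, beside 14% of all genes with a rise. The slope of Egfl7 was then 0.21 ± 0.08 (edgeR unadjusted p = 0.0139, adjusted p = 0.186), that of Icam2 0.21 ± 0.09 and that of Vcam1 -0.12 ± 0.06. The slope of Kdr moved from -0.26 to -0.05.

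**Figure D4:**
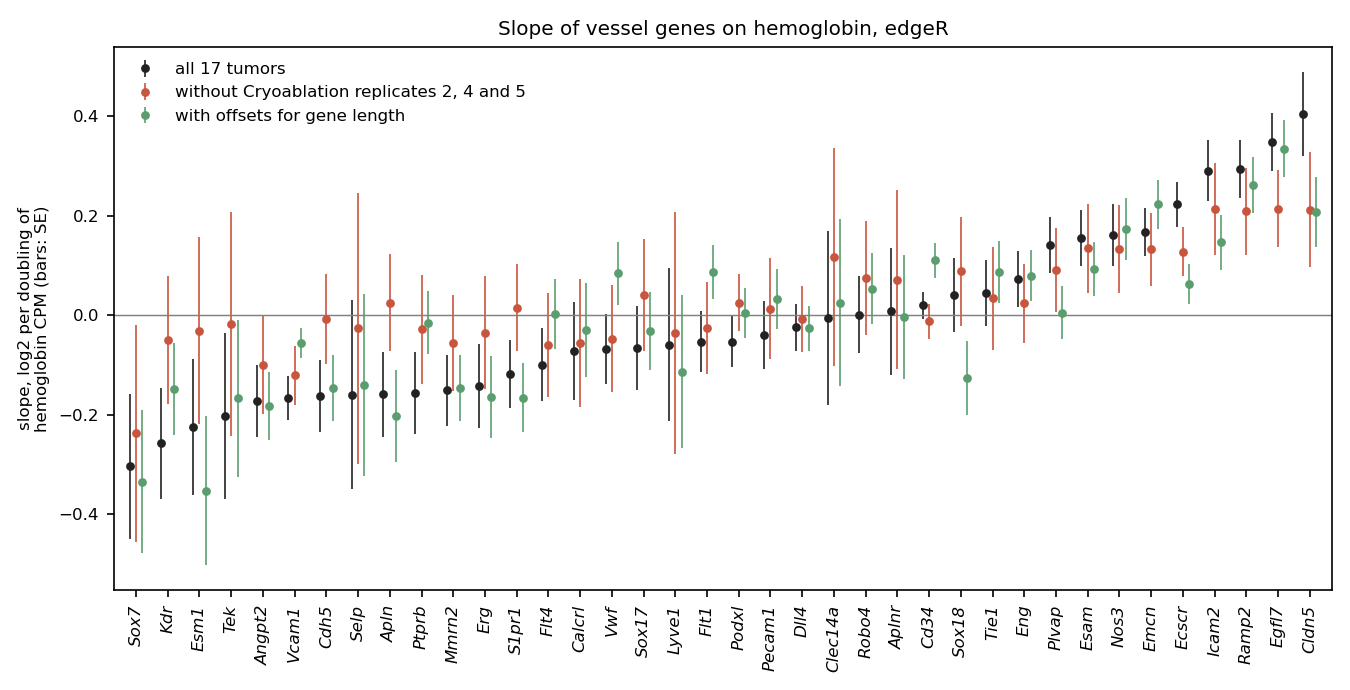
Slope of the 38 tested vessel genes on hemoglobin in log2 units per doubling of hemoglobin CPM, with bars of 1 SE, for all 17 tumors, without Cryoablation replicates 2, 4 and 5, and with offsets for gene length. Egfl7 moved from 0.35 to 0.21 without the 3 tumors, and Plvap from 0.14 to 0.01 with the offsets.

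Hemoglobin also moved with the length trend of a tumor. Hba-a1, Hbb-bs and Hbb-bt are themselves short, with listed lengths of 812, 768 and 703 bases. The part of their own length in this relation was not tested. The offsets used below were applied to the tested genes and not to the hemoglobin measure. Over the 17 tumors the length trend and log2 hemoglobin had r = -0.819 and rho = -0.833 (permutation p = 8.0e-05 and 6.0e-05, 1 relation computed). Without the 2 farthest tumors r was -0.767, and within the groups it was -0.852 for Control and -0.941 for Cryoablation (exact permutation p = 0.00271 and 0.00141). Tumors with more hemoglobin thus had relatively more counts on short genes. Across all genes, the correlation between log2 length and a gene's r with hemoglobin was -0.536, and across the 38 vessel genes it was -0.466, although genes are not independent replicates.

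Several of the rising vessel genes were short. Cldn5 has a listed length of 1416 bases, Ecscr of 1752, Icam2 of 1904 and Plvap of 1987, whereas Egfl7 has 3581, Emcn 5409, Vcam1 8870 and Kdr 9030. Short genes with a lower r were Sox18, a transcription factor gene of 1620 bases with r = 0.149, and Esm1, a gene of sprouting tip cells of 2097 bases with r = -0.366. When each tumor's length trend was taken out by offsets, 7 vessel genes rose at an adjusted p under 0.05, beside 23.6% of all genes, and Angpt2 alone fell, beside 16.9%. The rising genes now held Cd34, with a slope of 0.11 ± 0.04, and no longer Ecscr, Esam and Plvap. Egfl7 kept a slope of 0.33 ± 0.06, Ramp2 had 0.26 ± 0.06 and Emcn 0.22 ± 0.05. Cldn5 moved to 0.21 ± 0.07, Ecscr to 0.06 ± 0.04, Plvap to 0.01 ± 0.05 and Vcam1, no longer called, to -0.06 ± 0.03. The part of length in the slopes that remained was not tested further.

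**Figure D5:**
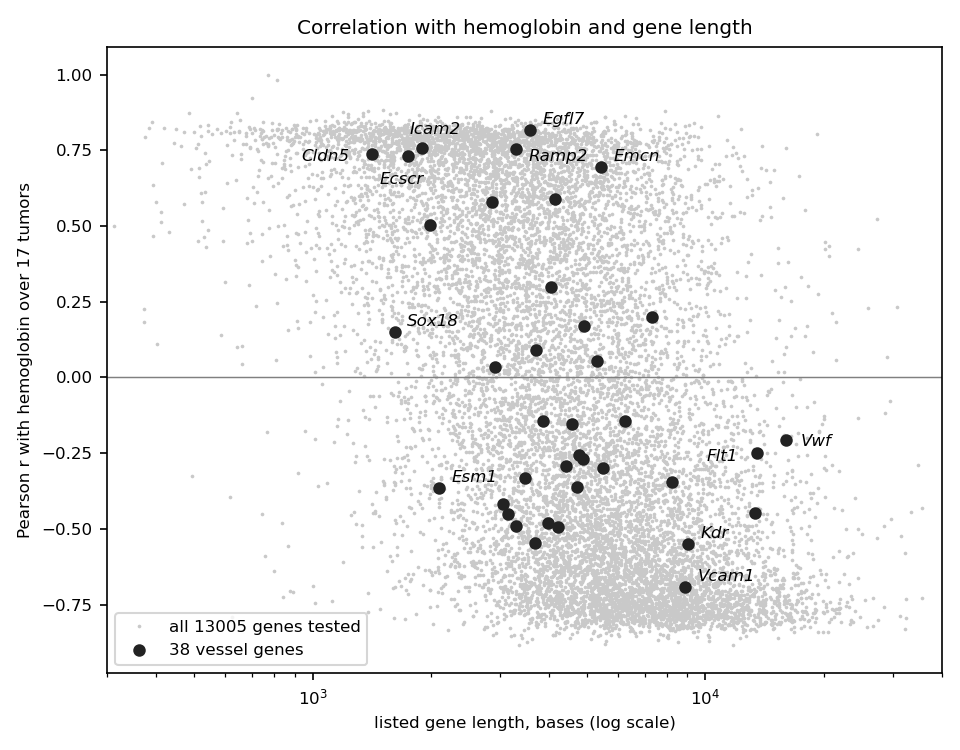
Pearson's r with hemoglobin over 17 tumors against the listed gene length in bases on a log scale, for the 38 vessel genes (black) and all 13005 genes tested (grey). The grey cloud slopes from short genes with positive r to long genes with negative r (correlation -0.536), and the vessel genes are spread within it from Egfl7 at 0.816 to Vcam1 at -0.692.

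The slopes on hemoglobin are given here by role, beside the 26.4% of all genes that rose and the 26% that fell, and no test compared the roles. Of 7 genes of the VEGF and angiopoietin families with their receptors, 0 passed the adjusted threshold. Kdr had a slope of -0.26 ± 0.11 and Angpt2, a ligand of Tek that loosens vessels, of -0.17 ± 0.07 (edgeR adjusted p = 0.0603 and 0.0515). The call depended on the setting. Both genes fell at an adjusted p under 0.05 with DESeq2, with alpha hemoglobin alone, and without Control replicate 4, 6 or 9. Of 5 receptors coupled to G proteins with their partners, only Ramp2 rose, and Calcrl had -0.07 ± 0.10. The 4 tested transcription factors, Erg, Sox7, Sox17 and Sox18, had slopes from -0.30 to 0.04, and none passed. Of 6 genes known from sprouting vessels, only Plvap rose, and it was not called with offsets for gene length. The others had slopes below 0, and none passed. They were -0.26 for Kdr, -0.22 for Esm1, -0.17 for Angpt2 and -0.16 for Apln. The tip cell gene Dll4, a Notch ligand, had -0.02 ± 0.05. Some genes belong to several of these roles.

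Apln, the ligand of the apelin receptor Aplnr, was the single vessel gene whose slope on hemoglobin differed between the groups at an adjusted p under 0.05, beside 15.9% of all genes. Its slope was lower in the Cryoablation group by a difference of -0.59 (edgeR interaction, adjusted p = 0.0141). Apln had 18.9, 20.8 and 32.6 CPM in the Control group and 10.7, 22.0 and 43.8 CPM in the Cryoablation group, where replicate 5 was lowest and replicate 7 highest. Within the Cryoablation group r was -0.911 (exact permutation p = 0.00238, n = 8), and within the Control group it was -0.000284 (exact permutation p = 0.999, n = 9). Without Cryoablation replicates 2, 4 and 5, r over the other tumors was 0.0599.

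Other genes of vessels were taken from lists. Of 20 further endothelial genes, 3 rose and 2 fell with hemoglobin at an adjusted p under 0.05, beside 26.4% and 26% of all genes, so these calls are no result about the list. Their mean had a correlation of 0.874 with the mean of the 38 vessel genes. The rising genes were Nostrin, Grrp1 and Gpihbp1, the anchor of lipoprotein lipase on capillaries, with slopes of 0.26, 0.43 and 0.39, and the falling genes were Adgrf5 and Cyyr1 with -0.31 and -0.53. Of 26 tested ligands, co-receptors and targets of vessel pathways, 5 rose and 8 fell, beside the same shares of all genes, and nothing is read from these counts. Vegfb and the BMP target Id1 rose with slopes of 0.25 and 0.32, and Vegfa, the main ligand of Kdr, and Notch1 fell with -0.24 and -0.51. Between the groups, Id1 was the only one of these 26 genes past an unadjusted p under 0.05, with a log2 fold change of 0.50 and an edgeR adjusted p of 0.728.

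Neighbouring cell types moved with the vessel pattern to different degrees. The mean of 9 fibroblast genes had a correlation of 0.782 with the vessel mean, and that of 12 genes of mural cells, which wrap vessels, one of 0.785. Gene by gene, the median correlation was 0.558 for the fibroblast genes and 0.212 for the mural genes, with Cspg4 at -0.431 and Mcam at 0.800. The summed levels of the fibroblast and mural genes ranged from 7733 to 13954 CPM and from 405 to 560 CPM in the Control group, and from 5315 to 10280 CPM and from 413 to 514 CPM in the Cryoablation group. Between the groups the edgeR test called 0 fibroblast genes and 2 mural genes at an unadjusted p under 0.05, Rgs5, a pericyte marker, and Notch3, with log2 fold changes of -0.51 and -0.67, beside 4.91% of all genes. Neither passed the adjusted threshold (edgeR adjusted p = 0.728 for both). The median over the 12 mural genes was -0.08, and others had values above 0, up to 0.74 for Cox4i2. For 9 macrophage genes the correlation was 0.454 and for 3 platelet genes -0.403. The platelet genes disagreed, with 0.177 for Pf4, -0.530 for Itga2b and -0.520 for Gp1ba. Between the groups, Adgre1 was the macrophage gene past an unadjusted p under 0.05, with a log2 fold change of -0.69. Krt10 of the epidermis was past it too, with 0.73 (edgeR adjusted p = 0.728 for both). The platelet markers Gp9 and Gp6 were at 3 counts or fewer in every tumor. Pf4 had means of 54.9 CPM in the Control group and 63.8 CPM in the Cryoablation group. Pf4 and Itga2b rose with hemoglobin, with slopes of 0.41 and 0.17 (edgeR adjusted p = 0.000759 and 0.00869), beside 26.4% of all genes. Gp1ba had a slope of -0.16 (adjusted p = 0.218). Of 6 adipocyte genes, Cfd, Fabp4 and Retn were higher after cryoablation at an unadjusted p under 0.05, beside 4.91% of all genes, and none passed the adjusted threshold (edgeR adjusted p = 0.728 for these 3). Fabp4 is also made by endothelial cells. With hemoglobin, 5 of 9 macrophage genes, 3 of 6 adipocyte genes and 2 of 3 epidermis genes rose at an adjusted p under 0.05 (edgeR), and 0 fell. Among them were C1qa, Cfd and Krt10 with slopes of 0.41, 0.63 and 0.31. Of the fibroblast genes 1 rose and 1 fell, and of the mural genes 2 rose and 3 fell. Beside these, 26.4% of all genes rose and 26% fell, and no test compared the lists. The part of these cells in the vessel pattern was not tested.

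Among genes outside the 40, those whose log2 CPM was most like the mean of the tested vessel genes over the 17 tumors were Lrp3 (r = 0.910), Cytip (0.889), Ptafr (0.888), Cd209a (0.885), Grb10 (0.875), Lifr (0.872), Cables1 (0.866), Abcg1 (0.865), Sfrp4 (0.860) and Mitf (0.860). Their own correlation with hemoglobin lay between -0.216 and 0.0181. They were chosen for their likeness to the vessel mean, whose own correlation with hemoglobin was -0.0767.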

How the data were processed

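RNA sequencing of 17 distant tumors was analysed, and groups came from the sample labels. The study's text gives the sizes of the 2 groups the other way round, and the labels were followed. The authors deposited raw counts of reads per gene and FPKM. The deposited FPKM equal the count over listed length and total within a relative 1e-6 for all 372827 values and were not used further. Per the labels, RNA was extracted with a column kit and 1.3 ug was made into libraries with a SMARTer kit. The labels' processing notes name GRCm38 and mm10, but only 499 of 21827 shared genes have the same positions as GENCODE M21, so no positions of the table are printed. The aligner, the counter and the strand setting are not given in the sources used here.

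Counts were tested with edgeR 4.0.16 in R 4.3.3 (TMM, filterByExpr by group, quasi-likelihood F test, Benjamini-Hochberg over 13005 genes). The SE is the log2 value over the square root of F. The hemoglobin slope used log2 of the summed CPM of Hba-a1, Hbb-bs and Hbb-bt (prior count 2) as a linear term. Correlations used log2 CPM with the same prior and 100000 permutations, or all orders within a group. Permutation tests were two-sided. P values measure the spread between tumors, and whether each came from a separate mouse is not labelled. A count of 3 was 0.168 to 0.222 CPM, and these limits cover counting error only. Offsets for gene length were fitted per tumor by natural splines with 4 degrees of freedom. GC content was available for 12981 of the genes tested. Scripts were tested on simulated data.

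The vessel genes, gene lists, roles and tests were chosen with earlier results of these data known. Genes were named in detail by these rules: the smallest p on hemoglobin or between groups (up to 4 each), the 3 highest and 3 lowest per kb, those least like the others, and the 10 other genes most like their mean. Others named by role were chosen after their values were seen. Alternatives were DESeq2 1.42.0, other normalizations, no filter, a replicate block, offsets, other hemoglobin measures, and leaving out tumors.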

Additional observations from a re-analysis of the deposited data

Results flagged for a closer look

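Of 82 sets of tumors of a single gene and group, 2 held a tumor far from the others by Dixon's test, where chance flags about 1 in 20. Emcn was at 5.38 CPM in Control replicate 6, below every other Control tumor, and Aplnr was at 1.19 CPM in Control replicate 9. The slope of Apln on hemoglobin differed between the groups by -0.59 (Cryoablation minus Control, edgeR interaction adjusted p = 0.0141), and Cryoablation replicates 2, 4 and 5 held the highest hemoglobin of the series.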

How the results depend on the processing

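Between the groups 0 genes were called at an adjusted p under 0.05 in edgeR and in DESeq2, under each alternative run. Vessel genes past an unadjusted p under 0.05 numbered 2 with DESeq2, beside 672 genes up and 209 down of all 13005. They numbered 2 without a filter (Egfl7 and Sele), beside 630 up and 362 down of 17819. When 1 tumor was left out they numbered 0 to 6. There were 6 without Cryoablation replicate 3, beside 1022 genes up and 366 down of 13040. There were 4 without Control replicate 1, beside 977 up and 307 down of 12985. There were 0 without any 1 of Cryoablation replicates 2, 4 and 5 or Control replicates 2, 7, 8 and 9. The hemoglobin slope was the most dependent on the setting. With the replicate number as a block, 2 genes of the table were called, with 0 vessel genes rising and 0 falling, and without Cryoablation replicates 2, 4 and 5 there were 3, with 0 and 0. The labels do not say whether the numbers pair the tumors. Same-numbered tumors had correlations from -0.510 to 0.642, and 2 of 8 correlated best with their own number. Whether the numbers mark pairs or batches cannot be told from these values. Between the groups under the block, Selp was the only vessel gene with an unadjusted p under 0.05, with a log2 fold change of -0.84. It did not pass the adjusted threshold, where the smallest edgeR adjusted p of any gene was 0.623. The number of falling vessel genes was 4 with DESeq2, 2 with upper-quartile normalization, 2 with group as a second term, 5 with alpha hemoglobin alone and 0 with offsets for length and GC content. In the same order, 3467, 3567, 3518, 3410 and 2235 of all 13005 genes fell. Leaving out 1 tumor gave 5043 to 7119 genes, 6 to 9 rising vessel genes (6 without Cryoablation replicate 5) and 14 to 17 with r above 0. Falling vessel genes then numbered 1 to 9, with 9 without Control replicate 6 and 6 without Control replicate 4 or 9. Over the whole table, 3301, 3631 and 3489 genes fell without Control replicates 6, 4 and 9 in turn. Without the 2 farthest tumors 10 vessel genes had r above 0. Within the Cryoablation group 8 vessel genes had r of at least 0.5 with the others. Plvap turned to -0.0316 with offsets for length and GC content, an alternative chosen after seeing the data, and the group value of Cldn5 to -0.13 without the 3 tumors, where Apln in place of Egfl7 had an unadjusted p under 0.05. The causes were not tested. Low counts limit genes such as Clec14a, Selp, Sox7, Tek, Sox17 and Flt4, whose lowest tumors had 2, 3, 4, 6, 18 and 20 counts. Prox1 and Sele did not pass the filter.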
